A study of Mus musculus with 10 samples.

Results

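The genes described here encode the extracellular matrix, the proteases that cut it and the inhibitors that hold those proteases in check. On a spotted mouse cDNA array they were represented by 88 clones of 65 genes, or 176 spots, among 15600 clones with 31200 spots. The rule reads gene symbols only, over the 9866 clones of 7142 genes that carry a single symbol in the platform annotation, and it was set with earlier results of these data known. They cover collagens, laminins, nidogens and perlecan, adhesive and matricellular glycoproteins, small leucine-rich proteoglycans, a fibulin, matrix metalloproteinases and their tissue inhibitors, Adam and Adamts proteases, and serpins. Of these genes 49 had 1 clone and 16 had several.

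The cells were M-1, a line from the mouse cortical collecting duct, grown in PC-1 medium and then held in medium nominally free of steroids, in every group. The dexamethasone group received 100 nM of this synthetic glucocorticoid for 3 h and was hybridised as 3 Cy5 channels. The control group, in steroid-free medium for 3 h, was hybridised as 5 Cy3 and 2 Cy5 channels, so that 3 treated arrays paired dexamethasone Cy5 with control Cy3 and 2 control pairs held control RNA in both colours. Dyes were not swapped. For 5 of the 7 control-titled channels the treatment field gives dexamethasone, so the fields disagree. The titles were followed, and every direction rests on them. All values come from this 1 cell line, and the labels do not say whether replicates were separate cultures, so the p-values cover the spread among these channels alone, which may be technical.

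An epithelium such as the collecting duct rests on a basement membrane, a sheet of type IV collagen and laminin joined by nidogen and perlecan. Matrix metalloproteinases and Adamts enzymes cut matrix proteins, and Adam enzymes shed proteins from the cell surface. Timp proteins block metalloproteinases, and most serpins block serine proteases by a change of shape that traps the enzyme. Glucocorticoids act through a receptor that binds DNA at paired AGAACA hexamers and also restrains the AP-1 factor, which drives several metalloproteinase genes.

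The treated arrays list only part of their spots. They hold 3778, 3994 and 4002 spots, which are 12.1%, 12.8% and 12.8% of the total, and no listed log2 Cy5/Cy3 ratio lies in a band about the centre, which is empty. Of the matrix and protease spots, 19, 20 and 19 were listed. A clone that was not listed has no ratio there, and a listed ratio is at least as large as the edge of the band, so treated ratios are enlarged by the listing while control ratios are not. The channel medians of spot intensity were 355 to 880.5 on the treated arrays and 327 to 1076 in the control pairs. Listed higher means a Cy5 excess beyond the band and listed lower a Cy5 deficit. All ratios below are centred log2 Cy5/Cy3 values.

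Promoter sequence, 250 bases before to 50 after the annotated start, was at hand for 42 of the 65 genes (RefSeq, GRCm38.p6). The hexamer AGAACA or its reverse complement TGTTCT was found in 6 of the 42 genes, or 14.3%, against 21.3% of all 27025 genes with a window. The genes with it were Bgn, Mmp23, Mmp7, Serpina1e, Serpinb9b and Sparc. The full palindromic glucocorticoid response element, which contains both hexamers, was found in 0 of the 42 genes and in 3 of all genes. The AP-1 motif TGACTCA or TGAGTCA was found in 3 of the 42, in Adam19, Col6a1 and Mmp7, which is 7.14% against 5.95% of all genes. Both strands were read, and a match describes the letters only. Of 2 promoters printed here, Sparc is the gene whose listed spot lay farthest outside the band, and Serpinb6a is a serpin whose clone was listed at both spots. Capitals mark the hexamers, at positions 173 and 237 of the Sparc window counted from its 5′ end. The Serpinb6a window, upstream of the first of its annotated starts in the table, held no match.
Sparc, chr11:55420031-55420330, minus strand: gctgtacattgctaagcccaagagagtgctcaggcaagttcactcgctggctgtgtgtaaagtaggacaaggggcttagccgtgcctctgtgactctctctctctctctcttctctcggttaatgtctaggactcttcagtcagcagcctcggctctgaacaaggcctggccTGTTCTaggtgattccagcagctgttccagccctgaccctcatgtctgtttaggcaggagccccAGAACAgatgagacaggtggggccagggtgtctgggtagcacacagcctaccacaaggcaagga
Serpinb6a, chr13:34002745-34003044, minus strand: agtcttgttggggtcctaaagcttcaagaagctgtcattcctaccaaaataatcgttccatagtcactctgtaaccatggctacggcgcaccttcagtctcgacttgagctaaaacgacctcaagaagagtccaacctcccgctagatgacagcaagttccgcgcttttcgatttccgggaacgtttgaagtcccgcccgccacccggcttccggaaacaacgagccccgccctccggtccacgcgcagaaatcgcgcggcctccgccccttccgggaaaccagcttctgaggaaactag

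Over the 3 treated arrays 42 of the 88 clones were listed at least once, or 47.7%, against 51.8% of all clones. Of these, 16 clones were listed higher and never lower, which is 18.2% against a background of 23.5%. Another 20 were listed lower and never higher, 22.7% against 22.4%. The remaining 6 were listed in both directions, 6.82% against 5.93%, and 46 were not listed, 52.3% against 48.2%. Counted by clone, the set thus stood near the share of all clones in the lower direction and under it in the higher. These counts carry no test. By spot, 29 were listed higher, where 6.36% of all spot positions were, and 29 lower, where 6.22% were. By gene, 37 of 65 had a listed clone, or 56.9% against 58.1% of all genes with a symbol. Of these 14 were listed only higher (21.5% against 24.9%), 16 only lower (24.6% against 22.6%) and 7 both ways (10.8% against 10.6%).

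Agreement between arrays was sparse. Clones of Lamc1, Dcn and Adam17 were listed higher on at least 2 treated arrays and never lower, 3.41% of the clones against 4.21% of all. In the lower direction 0 clones met this rule, against 4.2% of all. Of 53 listings of a clone on an array, 5 had both spots listed, or 9.43%, against 12.8% over all clones. These were Adam10, a clone of Adamts17, Fbln2, Serpinb6a and Sparc.

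By array the counts were small. Treated array 1 listed 7 spots of the set higher and 12 lower, a share of 36.8% higher where 52.7% of all its listed spots were higher. Treated array 2 listed 11 higher and 9 lower (55% against 48.2% of all), and treated array 3 listed 11 higher and 8 lower (57.9% against 50.9%). When an equal share of outlying spots was taken from each control pair, pair 1 gave 8 higher and 12 lower (40% higher against 50.4% of all) and pair 2 gave 14 higher and 13 lower (51.9% against 45.2%). In the control pairs, where no RNA differed by treatment according to the titles, 15 clones of the set were thus higher (17.0% against 17.9% of all clones), 21 lower (23.9% against 18.4%) and 1 both ways (1.14% against 2.47%).

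**Figure D1:**
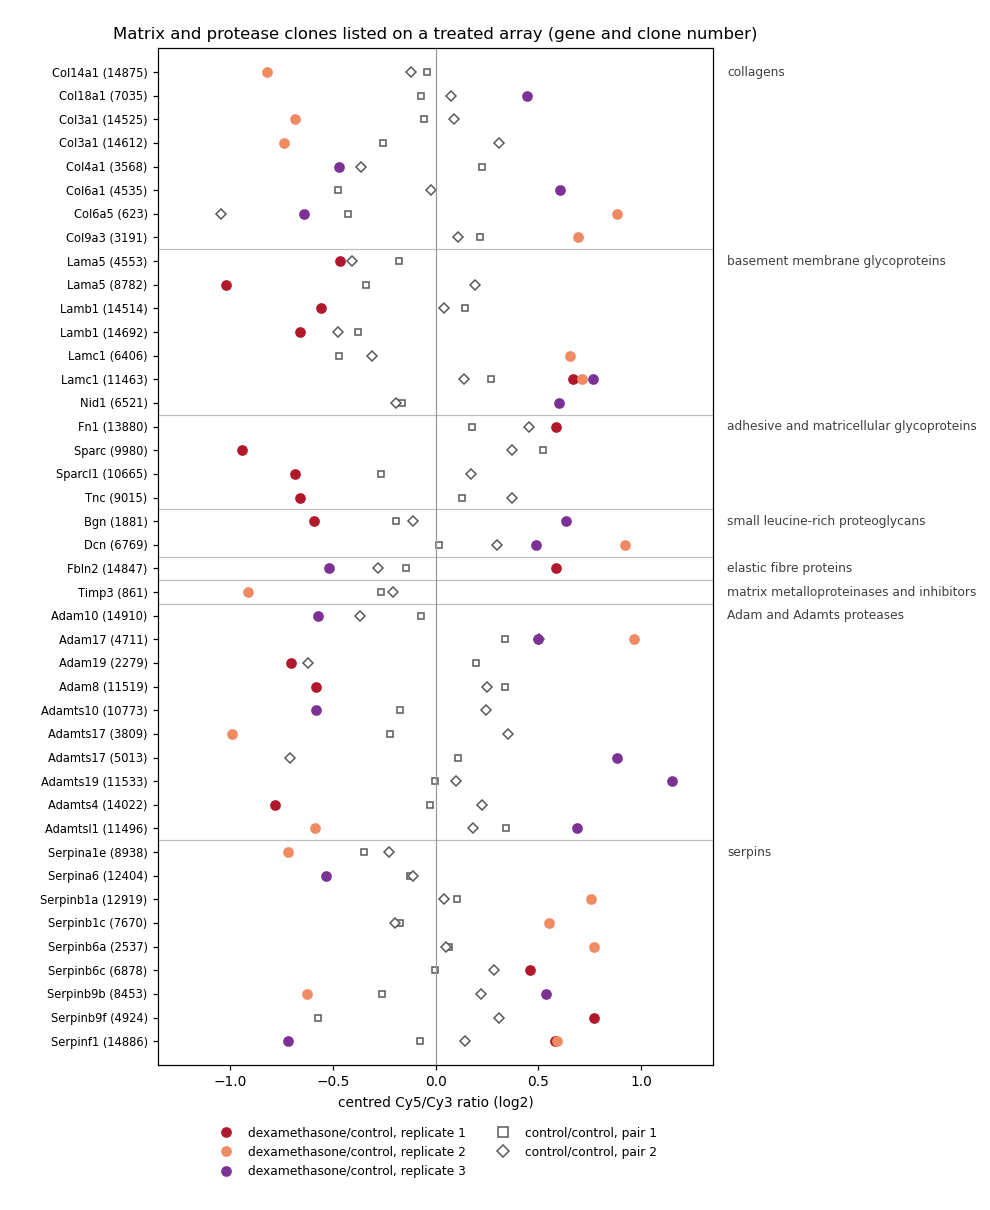
Centred log2 Cy5/Cy3 ratio (x axis) of each of the 42 listed clones (y axis, by role), with filled circles for the treated arrays and open squares and diamonds for control pairs 1 and 2. The 3 treated ratios of Lamc1 clone 11463 lie at 0.67, 0.72 and 0.77, and the empty stretch around 0 among the circles is the band that the listing leaves.

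A treated ratio exists only beyond the band, so it lies outside the control ratios in most cases by construction. All treated ratios lay outside both control pairs for 40 of the 42 listed clones, or 95.2%, against 93.4% of all listed clones. The exceptions were Col6a5 and Adam17. Control ratios here and below are means over the spots of a clone, also where 1 spot was listed, unless the listed spot is named. Most listed spots lay close to the band. Their median was 1.25 times the edge, against 1.27 times over all listed spots, and 25 of the 58 (43.1%, against 37.7% of all) lay under 1.2 times the edge. The size of the listed ratios ran from 0.44 to 1.15 with a median of 0.66, where the median over all listed spots was 0.66 and the largest 3.29. A spot of Sparc and a spot of Adamts19 were the 2 beyond 2 times the edge, at 2.34 and 2.14, and Adamts19 was named after its values were seen.

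**Figure D2:**
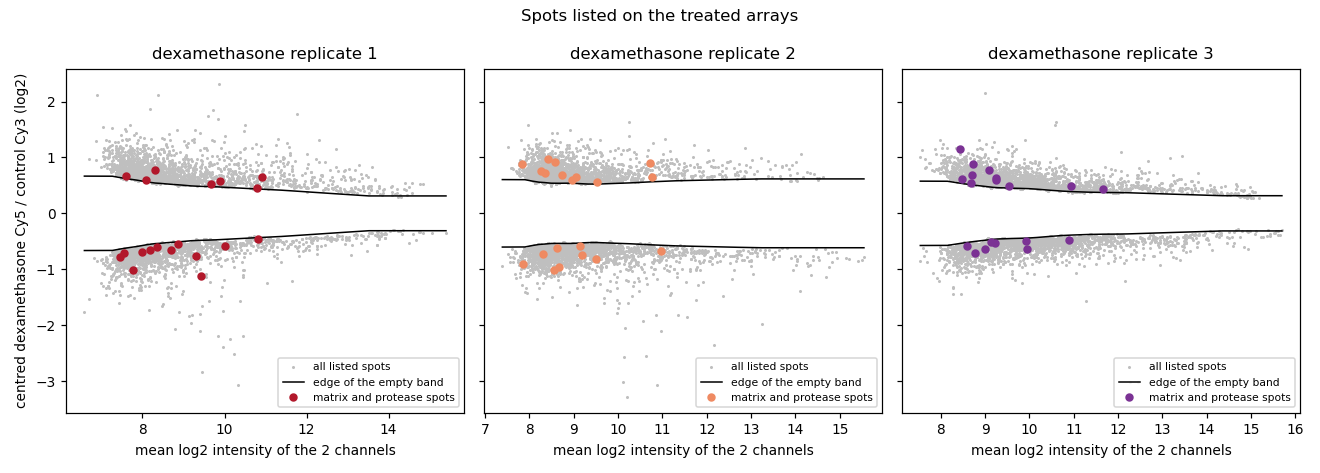
Centred log2 Cy5/Cy3 ratio of each listed spot on the 3 treated arrays against mean log2 intensity, with matrix and protease spots marked over all listed spots. The marked spots number 19, 20 and 19 and lie on both sides of the empty band.

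Collagens, the fibrils and sheets that give tissue its strength, were represented by 22 clones of 16 genes. On the treated arrays 3 clones were listed higher, 4 lower and 1 in both directions, with 4 spots higher and 5 lower. That is 13.6% of clones higher and 18.2% lower, against 23.5% and 22.4% of all clones, with 36.4% listed against 51.8%. Col3a1, a fibrillar collagen of soft connective tissue, had 4 clones, of which 2 were listed, both lower and both on treated array 2. Clone 14525 had a ratio of -0.68 there, against -0.06 and 0.09 in the control pairs. Clone 14612 had -0.74, against -0.26 and 0.31. Each treated value rests on 1 spot, while these control values are means over both spots. The listed spot of clone 14612 had -0.59 and -0.02 in the control pairs, and that of clone 14525 had -0.01 and 0.32. The other Col3a1 clones were not listed.

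Col4a1, the main type IV chain of basement membranes, was listed lower at 1 of its clones on treated array 3, at -0.47 against 0.22 and -0.36 in the control pairs. Col18a1, whose tail can be released as endostatin, was listed higher there at 1 of its clones, at 0.44 against -0.07 and 0.08. Both ratios rest on a single spot, while the control values are means over both spots. The listed spot had -0.20 and -0.34 in the control pairs for Col4a1 and 0.12 and -0.09 for Col18a1. Col1a1, Col1a2 and Col4a2, the chains of type I collagen and the partner chain of Col4a1, were not listed on a treated array. Their control ratios ran from -0.41 for a Col1a2 clone to 0.64 for Col4a2. The other collagen clones listed in a single direction had ratios from -0.82 to 0.69, each at 1 spot.

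Col6a5, a chain of beaded-filament collagen VI, was listed in opposite directions, with 0.88 on treated array 2 and -0.64 on treated array 3. In the control pairs its ratios were -0.43 and -1.05, both low in Cy5. The treated values lie on both sides of 0 and above the lower control pair. By limma its difference, treated minus control, was 0.86 (standard error 0.62, adjusted p = 0.450).

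Basement membrane glycoproteins had 15 clones of 8 genes. Of the clones 3 were listed higher, 4 lower and 0 in both directions, with 5 spots higher and 4 lower. That is 20% of clones higher and 26.7% lower, against 23.5% and 22.4% of all clones. Laminins are trimers of an alpha, a beta and a gamma chain, and the listed chains went different ways. The gamma chain Lamc1 was listed higher at 2 of its 3 clones, while the beta chain Lamb1 was listed lower at 2 of its 4 and the alpha chain Lama5 lower at both of its clones. All 4 Lamb1 and Lama5 listings were on treated array 1.

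Lamc1 clone 11463 was listed on all 3 treated arrays, as were 1.38% of all clones. Its dexamethasone Cy5 spots read 228, 341 and 760 in intensity beside control Cy3 values of 165, 313 and 387. In the control pairs the Cy5 channels read 332 and 897 and the Cy3 channels 416 and 487.5. After centring, the treated ratios were 0.67, 0.72 and 0.77, against 0.27 and 0.14 in the control pairs. These control values are means over both spots. The spot listed on treated arrays 1 and 2 had 0.31 and 0.40 in the control pairs. The spot listed on treated array 3 had 0.23 and -0.12. To be listed higher the treated values had to exceed band edges of 0.62, 0.55 and 0.47, which already lie above all these control ratios. The treated mean was 0.72 ± 0.05 (SD, n = 3) against 0.20 in the control pairs (n = 2). By limma the difference of 0.51 had a standard error of 0.16 and a 95% interval of 0.09 to 0.93, and it did not pass (limma adjusted p = 0.186).

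On each treated array only 1 of the 2 spots of this clone was listed. Relative to the control pairs, its scaled control Cy3 signal was 0.54 lower on the treated arrays and its Cy5 signal 0.02 lower (log2). The Cy5 channels alone thus gave a difference of -0.02. Median centring gave 0.08 and no normalisation 0.25. Clone 6406 of Lamc1 was listed on treated array 2 at 1 spot, at 0.65 against -0.47 and -0.31 in the control pairs. The listed spot itself had -0.73 and 0.09 in the control pairs. Clone 7702 was not listed.

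Lamb1 clones 14514 and 14692 were listed on treated array 1 at -0.56 and -0.66. In the control pairs clone 14514 had 0.14 and 0.04 and clone 14692 had -0.38 and -0.48, so part of the second value was also seen in control RNA. The other pair of Lamb1 clones was not listed, among them the bright clone 2244 with control intensities from 1097.5 to 4390.5. Lama5 was listed at -0.47 and -1.02, against control ratios of -0.18 and -0.41 for clone 4553 and -0.34 and 0.19 for clone 8782. Nid1, the nidogen that bridges laminin and type IV collagen, was listed higher on treated array 3 at clone 6521, at 0.60 against -0.16 and -0.19. Lama1, Nid2 and Hspg2, which encodes perlecan, were not listed.

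**Figure D3:**
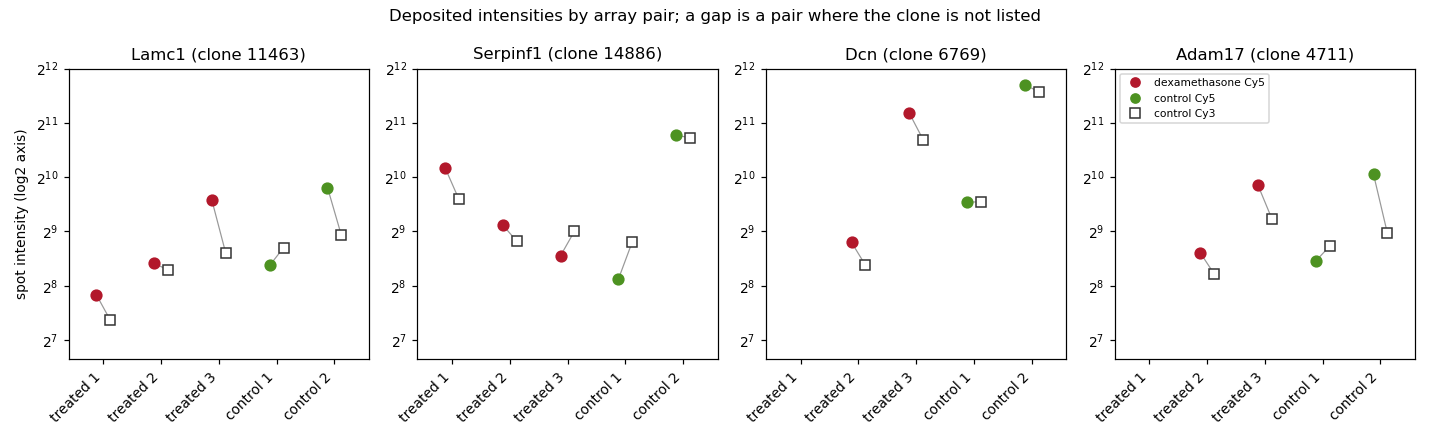
Spot intensity, on a log axis, of Lamc1 clone 11463, Serpinf1, Dcn clone 6769 and Adam17 in the dexamethasone and control channels of each array pair. For Lamc1 the dexamethasone Cy5 values of 228, 341 and 760 lie above the control Cy3 values of the same arrays, 165, 313 and 387.

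Adhesive and matricellular glycoproteins had 6 clones of 4 genes, with 1 clone listed higher and 3 lower, all on treated array 1. That is 16.7% and 50%, against 23.5% and 22.4% of all clones. Sparc, a calcium-binding matricellular protein that binds collagen, was listed lower at clone 9980 at both spots. Its dexamethasone Cy5 intensities were 460 and 483, against control Cy3 values of 1017 and 828. The treated ratio was -0.94, against 0.52 and 0.37 in the control pairs, so the signs were opposite. With clones listed on at least 1 treated array also tested, its difference by limma was -1.39 (standard error 0.29, adjusted p = 0.145). It rests on 1 treated array, and the other Sparc clones, 11425 and 11741, were not listed on any, with control ratios from -0.07 to 0.19.

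Fn1, fibronectin, the adhesive glycoprotein that integrins bind, was listed higher at 1 spot, at 0.59 against 0.18 and 0.45 in the control pairs. The listed Fn1 spot itself had 0.11 and 0.37 there. Tnc, tenascin C, which weakens adhesion to fibronectin, was listed lower at 1 spot, at -0.66 against 0.13 and 0.37 as means over both spots. At the listed spot Tnc had 0.07 and 0.03 in the control pairs, nearer to the treated value than these means. In the limma fit with clones listed on at least 1 treated array its difference was -0.91. It rests on 1 treated array, so no spread among treated arrays was measured for Tnc. Neither passed the test.

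Small leucine-rich proteoglycans, which bind collagen fibrils and growth factors, had 4 clones of 3 genes. Dcn, decorin, was listed higher at clone 6769 on treated arrays 2 and 3, at 1 spot each. Its dexamethasone intensities were 445 and 2317 beside control Cy3 values of 333 and 1651, and in the control pairs Cy5 read 742.5 and 3337 and Cy3 748.5 and 3044.5. The ratios were 0.92 and 0.49, against 0.02 and 0.30, and the band edges they had to exceed were 0.54 and 0.39. These control values are means over both spots. The spot listed on treated array 2 had -0.20 and 0.06 in the control pairs. The spot listed on treated array 3 had 0.23 and 0.53, so control pair 2 lay above the treated 0.49 at that spot. By limma the difference was 0.55 (standard error 0.27) and did not pass (adjusted p = 0.267).

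Both channels of the Dcn clone were dimmer on the treated arrays, by 1.04 in Cy3 and 0.49 in Cy5 (scaled log2), so the Cy5 channels alone gave -0.49. The other Dcn clone was not listed. Bgn, biglycan, a close relative of decorin, was listed at -0.59 on treated array 1 and 0.64 on treated array 3, against -0.19 and -0.11 in the control pairs (limma difference 0.17, standard error 0.48, adjusted p = 0.932). Fbln2, fibulin 2, the 1 elastic fibre gene with a clone, was likewise listed both ways, at 0.59 and -0.52, against -0.14 and -0.28 (limma difference 0.24, adjusted p = 0.862).

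Matrix metalloproteinases and their inhibitors had 7 clones of 6 genes, and 1 clone was listed, with 0 spots higher and 1 lower. That is 14.3% of clones listed, against 51.8% of all clones. Timp3, the inhibitor that stays bound to the matrix, was listed lower at clone 861 on treated array 2, at -0.91 against -0.27 and -0.21 in the control pairs. The listed spot read 137 in dexamethasone Cy5 and 393 in control Cy3, while this clone read from 1635.5 to 1970.5 in the control pairs. The second Timp3 clone was not listed. Mmp2, the gelatinase that cuts type IV collagen, and Timp2, which both inhibits and helps activate it, had no listed clone. Clones of Mmp9, Mmp14, Timp1, Lox, Serpinb5, Spp1, Thbs1 and Lamb2 were not analysed here.

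Adam and Adamts proteases had 17 clones of 13 genes, with 3 clones listed higher, 6 lower and 1 in both directions, and 5 spots higher and 9 lower. By clone 17.6% were only higher and 35.3% only lower, against 23.5% and 22.4% of all clones. The share higher was 35.7% of listed spots, against 50.6% over all clones, and the control pairs gave 3 spots higher and 4 lower. These shares carry no test. Adam17, the sheddase that frees tumour necrosis factor and growth factor ligands, was listed higher on treated arrays 2 and 3 at 1 spot each. Its dexamethasone intensities were 390 and 923 beside control Cy3 values of 298 and 602. The ratios were 0.97 and 0.50, against 0.34 and 0.50 in the control pairs as means over both spots. By these means the groups met at 0.50, and control RNA gave a Cy5 excess of its own. The spot listed on treated array 2 had 0.67 and 0.27 in the control pairs. The spot listed on treated array 3 had 0.003 and 0.74, so control pair 2 lay above the treated 0.50 at that spot. By limma the difference was 0.31 (standard error 0.26, adjusted p = 0.535). It was 0.080 with median centring, 0.076 with no normalisation and 0.15 with the Cy5 channels alone.

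Adam10, the sheddase of Notch and cadherins, was listed lower on treated array 3 at both spots of clone 14910. Dexamethasone Cy5 read 813 and 834 there against control Cy3 values of 1211 and 1126. The ratio was -0.57, against -0.07 and -0.37 in the control pairs, and the second Adam10 clone was not listed. Adamts1, which cuts the proteoglycans aggrecan and versican, was not listed.

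Adamts17, a secreted protease of this family, had 3 clones that did not go the same way. Clone 3809 was listed lower at both spots on treated array 2, at -0.99 against -0.22 and 0.35 in the control pairs. Clone 5013 was listed higher on treated array 3, at 0.89 against 0.11 and -0.71. Clone 4526 was not listed. Adamtsl1, an Adamts-like protein without a protease domain, was listed at -0.59 and 0.69 on treated arrays 2 and 3, against 0.34 and 0.18 in the control pairs (limma difference -0.21, adjusted p = 0.921). The other listed clones of the family had single ratios from -0.78 to 1.15.

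Serpins had 16 clones of 14 genes, with 5 clones listed higher, 2 lower and 2 in both directions, and 9 spots higher and 4 lower. By clone 31.25% were only higher and 12.5% only lower, against 23.5% and 22.4% of all clones. The share of listed spots that were higher was 69.2%, against 50.6% over all clones, and the control pairs gave 2 serpin spots higher and 4 lower. The 9 include both spots of Serpinb6a on 1 array, and spots of Serpinf1 and Serpinb9b, which were listed both ways. These shares carry no test. Several of the serpins belong to the mouse Serpinb1, Serpinb6 and Serpinb9 families, whose members are close in sequence. A cDNA spot may not separate them. Serpinb6a, an intracellular inhibitor of serine proteases, was listed higher at both spots on treated array 2. Dexamethasone Cy5 read 2412 and 2270, against control Cy3 values of 1196 and 1339. The ratio was 0.77, against 0.07 and 0.05 in the control pairs. In the limma fit with clones listed on at least 1 treated array its difference was 0.71 and did not pass. It rests on 1 treated array, so no spread among treated arrays was measured for this clone.

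Serpinf1, pigment epithelium-derived factor, a secreted serpin that blocks vessel growth and inhibits no protease, was the other clone listed on all 3 treated arrays. Its ratios were 0.58, 0.59 and -0.72, against -0.08 and 0.14 in the control pairs, so 2 treated arrays listed it higher and 1 lower. Its difference by limma was 0.12 (standard error 0.47, adjusted p = 0.952). Without treated array 1 it turned to -0.09 and without treated array 2 to -0.10. Serpinb9b, of a family that inhibits granzyme B, had -0.62 and 0.54 at clone 8453 on treated arrays 2 and 3, against -0.26 and 0.22 in the control pairs (limma difference -0.02, adjusted p = 0.991). Serpinh1, the collagen chaperone Hsp47, was not listed. The other listed serpin clones, of 6 genes, had single ratios from -0.72 to 0.77.

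The comparison of dexamethasone with control pairs in limma took the 2131 clones listed on at least 2 treated arrays, 9 of them from this set. It called 0 clones higher and 0 lower at an adjusted p under 0.05, where the background was also 0% in each direction. Lamc1 was the 1 of the 9 with an unadjusted p under 0.05, against 25.9% of all clones tested, and the smallest adjusted p was 0.186 in the 9 and over all clones. The median difference of the 9 was 0.24, with 7 above 0 and 2 below, against a median of 0.02 over all 2131. Because these clones entered through large treated ratios, their unadjusted p-values run low. The median of the 9 likewise depends on which clones were listed, as 3 of them were listed only higher and 0 only lower. With the 8056 clones listed on at least 1 treated array, limma called 0 of 42 clones of this set and 1 of all, with 35.7% against 32.3% at an unadjusted p under 0.05.

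**Figure D4:**
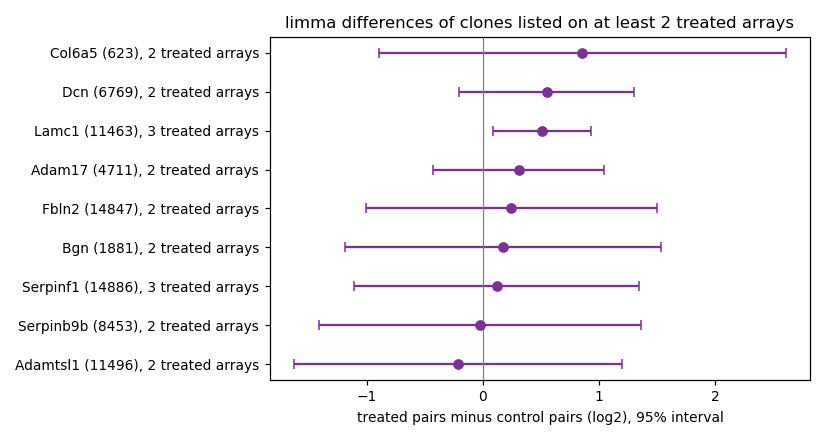
Difference of log2 Cy5/Cy3 ratio, dexamethasone pairs minus control pairs, for the 9 clones in the limma comparison, with 95% intervals. The interval of Lamc1 runs from 0.09 to 0.93, and its adjusted p is 0.186.

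In the control pairs, where both channels were titled control, the ratio shows what the dyes give without treatment. Over the 88 clones the mean control ratio had a median of 0.03 and ran from -0.74 for Col6a5 to 0.52 for Col4a2. It had the same sign in both pairs for 54 clones, or 61.4%, against 55.2% of all. Tested against 0 in limma, 0 clones were higher in Cy5 and 1 was lower, where 0.0321% and 0.289% of all 15561 clones passed. That clone was Col6a5 (adjusted p = 0.039), and with median centring it did not pass. Unadjusted p-values under 0.05 were found for 7 clones, or 7.95%, against 8.68% of all, among them those of Adam17 and Sparc named above.

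**Figure D5:**
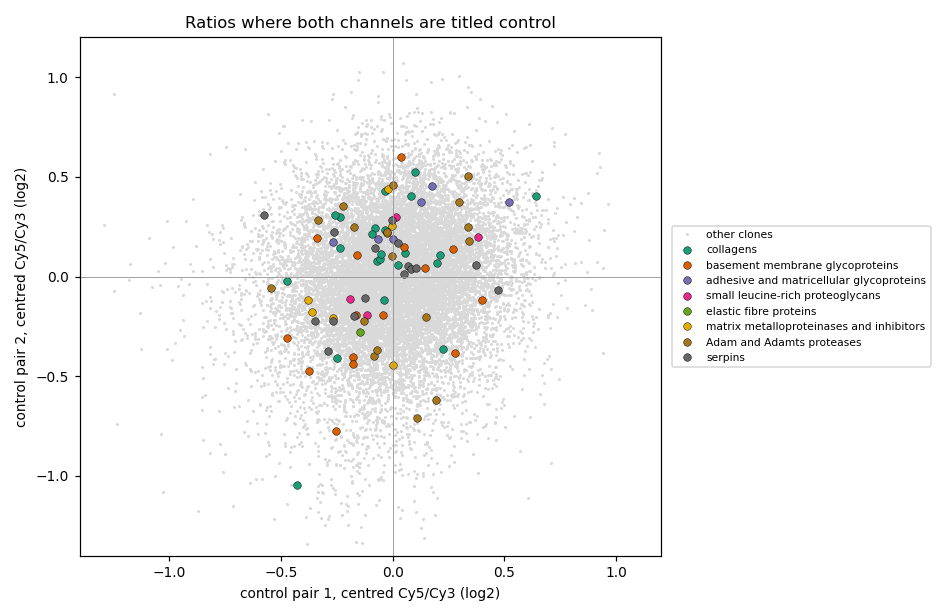
Centred log2 Cy5/Cy3 ratio of each clone in control pair 2 against control pair 1, with matrix and protease clones marked over all clones. Col6a5 lies lowest in this set on average, at -0.43 in pair 1 and -1.05 in pair 2.

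Genes that work with the matrix but fall outside the symbol rule were taken from a list of 74, of which 41 had a clone. Over the treated arrays 12 genes were listed only higher, 7 only lower and 3 both, with 18 spots higher and 21 lower. By clone 22.0% were only higher and 18.6% only lower, against 23.5% and 22.4% of all clones. Of the 6 clones that limma could test it called 0. Matrix receptors had 6 genes higher and 1 lower of 11 measured, which by clone is 6 of 17 higher (35.3%, against 23.5% of all clones) and 1 lower (5.88%, against 22.4%). Sdc2, a syndecan that carries heparan sulphate, had 1.02 and 0.50 on treated arrays 2 and 3 at clone 9071, against 0.01 and 0.01 in the control pairs (limma difference 0.75, standard error 0.27, adjusted p = 0.195), while its other clone was not listed. Itgb1, the common beta subunit of matrix-binding integrins, had 0.83 and 0.46 on treated arrays 1 and 3, against 0.44 and 0.13 (difference 0.36, limma adjusted p = 0.439). The enzymes and chaperones of collagen folding Crtap, P4ha2 and Plod3 were each listed higher at 1 spot, and 0 of the 7 measured genes of that group were listed lower. By clone 27.3% of this group were higher, against 23.5% of all, and 72.7% were not listed, against 48.2%. Regulators and other matrix genes had 15 clones, 2 only higher (13.3%, against 23.5% of all) and 7 only lower (46.7%, against 22.4%). Serine and cysteine proteases and their inhibitors had 16 clones, 2 only higher (12.5%) and 3 only lower (18.75%). The shares of these groups carry no test.

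Plat, tissue plasminogen activator, which turns plasminogen into plasmin, was listed lower at both of its clones. Clone 11218 had -0.87 and -0.62 on treated arrays 2 and 3, against -0.07 and 0.36 in the control pairs (limma difference -0.88, standard error 0.26, adjusted p = 0.186). Clone 14791 had -0.47 on treated array 3, against 0.02 and 0.06. Ctsd, the lysosomal protease cathepsin D, was listed lower at all 4 spots of clone 13956 on treated arrays 2 and 3, at -0.65 and -0.45 against 0.56 and 0.12 (limma difference -0.89, standard error 0.26, adjusted p = 0.186). Another of its 4 clones, 10424, was listed higher at 1 spot, at 0.39, which lies between its control ratios of 0.49 and 0.01. Vcan, versican, a large proteoglycan, had -0.53 and -0.58 on treated arrays 1 and 3, against -0.04 and -0.02 (limma difference -0.52, standard error 0.19, adjusted p = 0.195). None of these passed.

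Of 18 collecting duct and epithelial markers 9 had a clone, and their brightness differed. Clones of Krt8, Krt18 and Krt7, keratins of simple epithelia, read from 1982 to 24724 in the control pairs, where the channel medians over clones were 325.5 to 1069. Epcam and Krt19 were also above every channel median. Cdh1, the epithelial cadherin, read below all 4 channel medians at clone 10554, with 289 to 843.5, and Slc4a1, the anion exchanger of intercalated cells, read below 3 of them, with 333 to 881.5. Aqp2 and the subunits of the epithelial sodium channel, which define the principal cell, had no clone among those analysed here. On the treated arrays 5 of the 9 were listed higher and 0 lower, which by clone is 33.3% and 0%, against 23.5% and 22.4% of all clones. By clone 66.7% were not listed, against 48.2% of all. Cdh1, Krt7, Krt8 and Krt19 were each listed at 1 spot. Cdh1 clone 7893 had 0.52 there, between its control ratios of 0.52 and 0.34 or level with the higher. The other listed ratios lay above both control ratios, as most do by construction. Slc4a1, listed on 2 treated arrays, did not pass (limma adjusted p = 0.193). Of 8 fibroblast markers 4 had a clone, with 2 genes listed higher and 1 lower. Leukocyte and endothelial markers had 3 of 9 with a clone, with 0 higher and 1 lower. Of the 6 proximal tubule markers Lrp2 alone had clones, 1 listed each way. By clone the shares higher and lower were 50% and 25% for fibroblast, and 0% and 33.3% for leukocyte and endothelial markers. For Lrp2 they were 50% and 50%. They rest on 4, 3 and 2 clones, where all clones gave 23.5% and 22.4%. The part of other cell types in the ratios was not tested, and a smaller number of cells and less RNA per cell cannot be told apart in bulk RNA.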

How the data were processed

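Expression was measured on spotted cDNA arrays in 10 channels. The authors deposited spot intensity values on a linear scale, quantified in Imagene 4.0 per the labels; for background correction, normalisation and the listing rule of the treated arrays, the step was not given in the sources used here. Titles set the groups. Array titles join the treated pairs, and the control channels were joined by title number, at r = 0.933 and 0.927 over log2 intensity, against 0.727 to 0.782 between numbers.

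Log2 Cy5/Cy3 ratios were formed without an added constant. Lowess (statsmodels 0.14.6, span 0.2) centred the control pairs, and treated arrays were centred on the midpoint of their empty band (windows of 150 spots, span 0.3). Spots of a clone were averaged. limma 3.58.1 in R 4.3.3 (statmod 1.5.0) compared treated with control pairs over clones listed on at least 2 treated arrays, and control pairs with 0, with Benjamini-Hochberg adjustment over all clones and a threshold of 0.05. The steps were tested on simulated data. Treated arrays and control pairs were taken as separate slides without a dye swap, although the titles name no array for the control channels. Slide, dye and treatment thus cannot be told apart, and the number of arrays limits the precision.

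Names come from the platform annotation, in which 19732 spots have a single symbol, 548 several and 10920 no row. All 65 genes matched RefSeq by gene ID. Clones were named where they were in the limma comparison, listed on at least 2 treated arrays one way, of a gene on a fixed list, or of a gene with at least 3 clones. The clones and all lists were chosen with earlier results of these data known. Alternatives covered the clones tested, centring, a value of 50 added, a filter on dim spots, pairing, channels, the contrast, the variance trend, and each pair left out.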

Additional observations from a re-analysis of the deposited data

How the results depend on the processing

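The limma comparison called 0 clones of the matrix and protease set higher and 0 lower under every alternative run, and from 0 to 0 when any 1 pair was dropped. Over all clones the count lower was 1 with the 213 clones valued in all 5 pairs, 1 with the 8056 listed on at least 1 treated array, 1 with median centring and 1 with the Cy5 channels alone, which also gave 8 higher. Of 132 values for the 9 clones under these alternatives, 116 had the same direction and 16 the opposite, and the smallest adjusted p by limma was 0.100. When channels were fitted unpaired (no replicate block), and with the same value from the Cy5 channels alone, the difference was -0.28 for Col6a5, -0.49 for Dcn, -0.023 for Lamc1, 0.16 for Serpinb9b and 0.16 for Adamtsl1. A random replicate block for the pair gave 0.015 for Serpinb9b, and no replicate block changed a call in the set. Median centring gave -0.11 for Bgn, and treated pairs against 0 gave 0.052 for Adamtsl1. With a pair left out the difference ran from -0.27 to 0.22 for Serpinb9b and from -0.10 to 0.56 for Serpinf1. The cause of these reversals was not tested. In the dye test over all clones the count higher in Cy5 was 0 with median centring and 8 with 50 added, and the count lower was 0 with median centring, also 0 in this set. With 1 clone per gene, 65 clones in all, 19 spots and 9 clones were listed higher and 22 spots and 15 clones lower. With 1 treated array left out, spots listed higher ran from 18 to 22 and lower from 17 to 21. Clones listed higher ran from 13 to 14, clones listed lower from 11 to 19 (11 without treated array 1), and clones higher on at least 2 arrays from 1 to 3 (1 without treated array 2). Fewer arrays hold fewer listings by construction.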

Other observations

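Signal in the control pairs, which list nearly all spots, shows which clones of the set were bright. In all 4 control channels 12 of the 88 clones, or 13.6%, lay above the upper quartile of clones, against 14.6% of all. They were clones of Adam10, Adamts1, Col18a1 (both clones), Col4a5, Dcn, Lama5, Lamb1, Serpinb6a, Serpinb6c, Serpinb9 and Timp3. Below the median of all 4 channels lay 31 clones, or 35.2%, against 26.8% of all, among them 9 of the 17 Adam and Adamts clones. A bright cDNA spot depends on the clone as well as on the transcript, so no order between genes follows.

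The same control label gave different brightness in the 2 control pairs. Relative to all clones, scaled log2 signal in control pair 2 minus pair 1 ran from -1.37 for Serpinh1 to 2.42 for Mmp2, and 8 of the 88 clones, or 9.09%, differed by over 2-fold, against 11% of all. Mmp2 read 4403.5 in Cy5 and 6461 in Cy3 in pair 2, against 312.5 and 469 in pair 1, a 5.36-fold difference after scaling. Serpinh1 read 884.5 and 886.5 in pair 2, against 888.5 and 1010 in pair 1. Both genes were chosen after these values were seen as the ends of the range. Over the 5 control Cy3 channels, neither Lamc1 clone 11463 nor Serpinf1, the clones with a value in all of them, had a channel standing apart (gap over range 0.430 and 0.280, under Dixon's critical value).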
